A study of Mus musculus with 6 samples.

Results

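The 8 gluconeogenesis genes described here were Pck1, Pck2, G6pc, Fbp1, Pcx, Slc37a4, Foxo1 and Ppargc1a, picked by symbol from the 21899 genes of the expression table, where each symbol had 1 row. They comprise the enzymes of the irreversible steps of glucose synthesis, the transporter that feeds the last of them, and a transcription factor and a coactivator that regulate the others. Livers came from wild-type C57BL6J mice after 6 weeks on a methionine/choline-deficient (MCD) diet, against mice on a methionine/choline-sufficient (MCS) diet, with 3 polyA RNA libraries per diet and no other treatment or allele named. The MCD diet is a widely used dietary model of steatohepatitis in mice. The labels do not say whether the libraries of a diet came from separate animals, so p-values measure the spread between these libraries, which may be technical. Sex, age and feeding state at collection are not given in the sources used here.

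Gluconeogenesis makes glucose from lactate, alanine and other amino acids, and glycerol. In liver, pyruvate carboxylase and phosphoenolpyruvate carboxykinase (PEPCK) bypass the pyruvate kinase step, fructose-1,6-bisphosphatase bypasses phosphofructokinase, and glucose-6-phosphatase releases free glucose. Glucagon, glucocorticoids and fasting are known to raise transcription of Pck1 and G6pc, and insulin is known to lower it, in part by excluding FOXO1 from the nucleus.

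Total counts per library ran from 18443357 to 21285045 in the MCD and from 16615469 to 21322771 in the MCS libraries. Counts were tested with edgeR's quasi-likelihood test over the 12599 genes that passed a filter on low counts, with libraries scaled by TMM, which sets each library against the bulk of expressed genes. The p-values were adjusted by Benjamini-Hochberg over all of these genes, and a value under 0.05 is called a change. All 8 gluconeogenesis genes passed the filter. The total TPM of the 8 genes was 2531 to 2954 in MCD livers, against 4145 to 4852 in MCS livers, and the ranges did not overlap. Most of these totals was Pck1 (mean 1364 TPM in MCD and 2126 TPM in MCS livers) and Fbp1 (798 and 1425 TPM). Mean TPM of Slc37a4, Pck2 and Ppargc1a was higher in MCD livers. The defining markers of liver were present: 16 hepatocyte genes, such as Alb and Apoa1, together had 118928 to 144905 TPM in MCD livers and 111042 to 116679 TPM in MCS livers. Much of these sums was Alb, with 55058 to 64169 TPM in MCD livers and 32767 to 52272 TPM in MCS livers. The sums therefore do not show the direction of the other markers.

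Pck1, G6pc, Fbp1, Pcx and Foxo1 fell in MCD livers, Pck2 rose, and Slc37a4 and Ppargc1a did not pass the test. The 5 of 8 genes called lower stood against 9.97% of all tested genes called lower, and the 1 called higher against 14.8% called higher. For 6 of the 8 genes the CPM values of the diets did not overlap, as was so for 45.3% of all tested genes. The median log2 fold change of the 8 genes was -0.86, against 0.01 over all tested genes. The 16 hepatocyte markers had a median of -0.75 in the same test, closer to that of the 8 genes. With libraries scaled to those markers, the median of the 8 genes was -0.14. Scaling matters for these values: with library size alone, the median over all tested genes was 0.57, and that of the 8 genes was -0.33. With that scaling 4 of the 8 genes were called lower and 1 higher, against 2.76% of all tested genes called lower and 40.4% called higher. The distance of the 8 genes' median from that of all tested genes lay between -0.92 and -0.77 under the scalings and units tried. In bulk liver, fewer hepatocytes and less RNA of a gene per hepatocyte cannot be told apart.

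**Figure D1:**
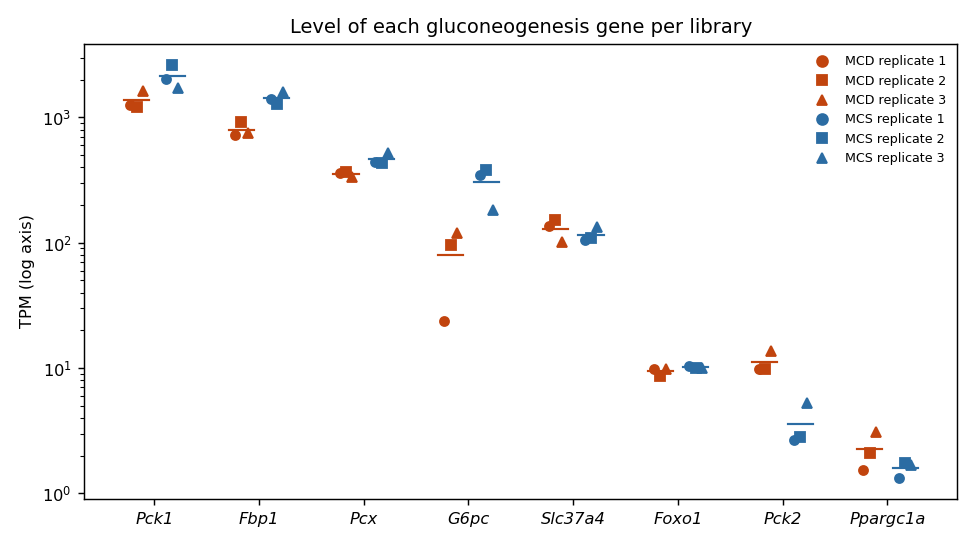
Level of each gluconeogenesis gene in TPM (log axis) in each of the 3 MCD (orange) and 3 MCS (blue) libraries, with the mean as a line. G6pc lay between 23.8 and 120 TPM in MCD livers and between 183 and 381 TPM in MCS livers, whereas Slc37a4 overlapped.

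Levels, given per transcript length as TPM, differed widely between the genes. On the TPM scale the order of mean levels in MCD livers was Pck1, Fbp1, Pcx, Slc37a4, G6pc, Pck2, Foxo1 and Ppargc1a. In MCS livers it was Pck1, Fbp1, Pcx, G6pc, Slc37a4, Foxo1, Pck2 and Ppargc1a. G6pc and Slc37a4 thus changed places, as did Pck2 and Foxo1. Among neighbours in these orders, Slc37a4 and G6pc overlapped in MCD livers, as did Pck2 and Foxo1, and no neighbours overlapped in MCS livers. Mean levels placed Pck1 at percentile 99.3 of tested genes in MCD livers and 99.4 in MCS livers, and Ppargc1a at percentile 17.2 in MCD livers and 24.9 in MCS livers.

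The PEPCK genes, whose enzymes convert oxaloacetate to phosphoenolpyruvate, moved in opposite directions. Pck1, which encodes the cytosolic enzyme and is the hormone-regulated form in mouse liver, had 1546, 1776 and 1661 CPM in MCD livers, against 4016, 5326 and 3150 CPM in MCS livers. All MCD libraries were below all MCS libraries, and the spread was wider among the MCS libraries. Pck1 was 2.51-fold lower in MCD livers, a log2 fold change of -1.33 ± 0.28 (SE, n = 3 each, edgeR adjusted p = 0.0110). Its call was lost without MCD replicate 1 (log2 fold change -1.28, edgeR adjusted p = 0.0652), without MCS replicate 2 (-1.12, adjusted p = 0.0596), and with libraries scaled to the hepatocyte markers (-0.55, adjusted p = 0.0709). Pck2, which encodes the mitochondrial enzyme, had 325, 345 and 436 counts in MCD livers and 103, 80 and 110 counts in MCS livers. As CPM these were 14.6, 15.6 and 15.2 in MCD livers, against 5.93, 6.04 and 6.07 in MCS livers. The libraries of each diet lay close together and the diets far apart. Pck2 was 2.52-fold higher in MCD livers, with a log2 fold change of 1.33 ± 0.16 (SE, n = 3 each, edgeR adjusted p = 0.00112).

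Pck1 remained the main PEPCK transcript in both diets. Pck2 made up 0.772%, 0.804% and 0.843% of the summed PEPCK TPM in MCD livers, against 0.130%, 0.106% and 0.308% in MCS livers. The share was higher in each MCD library than in each MCS library. The log2 ratio of Pck2 to Pck1 within a library, which no scaling of libraries can move, differed by 2.32 between MCD and MCS livers. Its exact two-sided permutation test gave p = 0.1, the smallest that 3 against 3 libraries allow (0.15 after Benjamini-Hochberg adjustment over the 6 ratios tested).

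The bases before the start sites of the PEPCK genes and of G6pc are shown because these genes changed most or moved against each other. Sequences are from RefSeq on GRCm38.p6, which is not the build of the files (GRCm39). The Pck1 stretch is chr2:173152823-173153072 on the plus strand, and that of Pck2 is chr14:55540016-55540265 on the plus strand. The G6pc stretch is chr11:101367466-101367715 on the plus strand. Capitals mark matches to motifs described after the sequences.
Pck1: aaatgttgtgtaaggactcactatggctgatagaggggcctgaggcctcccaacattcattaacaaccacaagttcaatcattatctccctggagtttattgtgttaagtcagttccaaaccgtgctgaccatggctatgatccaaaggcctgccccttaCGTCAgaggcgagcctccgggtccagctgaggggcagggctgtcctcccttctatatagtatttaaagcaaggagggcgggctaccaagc
Pck2: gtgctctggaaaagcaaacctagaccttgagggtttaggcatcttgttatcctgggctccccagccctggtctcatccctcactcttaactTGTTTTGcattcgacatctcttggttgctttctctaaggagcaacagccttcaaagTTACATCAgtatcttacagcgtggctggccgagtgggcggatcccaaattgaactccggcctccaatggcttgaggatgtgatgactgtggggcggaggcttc
G6pc: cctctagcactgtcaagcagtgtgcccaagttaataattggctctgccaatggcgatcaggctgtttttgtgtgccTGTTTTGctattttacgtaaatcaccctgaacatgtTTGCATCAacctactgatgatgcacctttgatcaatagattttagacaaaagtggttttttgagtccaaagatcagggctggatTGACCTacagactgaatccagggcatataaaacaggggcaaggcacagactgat

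Motifs were searched on both strands of 300-base windows, from 250 bases before the start to 50 after it, for all 8 genes and for all 32851 windows in the set. The core of the cAMP response element, TGACG, matched the Pck1 window at -90 to -86 as CGTCA, where numbers count bases before the start, and 20.8% of all windows hold it. The insulin response core CAAAACA matched Pck2 at -159 to -153 and G6pc at -174 to -168, both as TGTTTTG, and 6.28% of all windows hold it. The ATF4 element TGATGNAA matched Pck2 at -103 to -96 as TTACATCA and G6pc at -138 to -131 as TTGCATCA, against 3.97% of all windows. The nuclear receptor core AGGTCA matched G6pc at -54 to -49 as TGACCT, and 16.3% of all windows hold it. Of the other genes, the windows of Slc37a4 held TGACG and AGGTCA, that of Ppargc1a held TGACG, and that of Pcx held AGGTCA. Fbp1 and Foxo1 held none of these letters in their windows, which says nothing of factors that bind there. The full cAMP response element TGACGTCA, the FOXO motif GTAAACA, the C/EBP motif TTGCGCAA and the glucocorticoid receptor core TGTTCT matched in none of the 8 genes. These shares were 1.79%, 3.65%, 0.183% and 19.0% of all windows for the motifs in that order. Matches are letters in a window, not sites shown to be bound.

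The last step, release of glucose from glucose 6-phosphate in the endoplasmic reticulum, had the largest fold change of the 8 genes. G6pc, the catalytic subunit of glucose-6-phosphatase, had 26.4, 127 and 111 CPM in MCD livers, against 620, 698 and 307 CPM in MCS livers. The diets did not overlap, although MCD replicate 1 and MCS replicate 3 lay well below the other libraries of their diets. G6pc was 6.13-fold lower in MCD livers, a log2 fold change of -2.62 ± 0.60 (SE, n = 3 each, edgeR adjusted p = 0.0221). Its log2 fold change stood at percentile 0.611 of all tested genes, counted from the lowest. The call was lost without MCD replicate 3 (log2 fold change -2.82, edgeR adjusted p = 0.111), MCS replicate 1 (-2.52, adjusted p = 0.0646) or MCS replicate 2 (-2.40, adjusted p = 0.0705), and it held under each scaling tried.

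Slc37a4, the transporter that carries glucose 6-phosphate to that enzyme, had 130, 170 and 79.4 CPM in MCD livers and 160, 170 and 190 CPM in MCS livers. The diets overlapped, and the log2 fold change was -0.45 ± 0.26 (SE, n = 3 each, edgeR adjusted p = 0.221). The sign depended on scaling: it was 0.05 with library size alone and 0.14 on log2(TPM + 1). It passed the test without MCD replicate 2 (log2 fold change -0.75, edgeR adjusted p = 0.0300). Mean TPM of the catalytic subunit was below that of its transporter in MCD livers and above it in MCS livers. G6pc TPM was 0.175, 0.631 and 1.19 times that of Slc37a4 in MCD livers, against 3.28, 3.47 and 1.38 times in MCS livers. G6pc was below Slc37a4 in 2 of 3 MCD libraries, and MCD replicate 3 was just below the lowest MCS ratio. The log2 ratio differed by -2.30 between MCD and MCS livers (exact permutation p = 0.1, 0.15 adjusted over the 6 ratios).

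Fbp1, the liver form of fructose-1,6-bisphosphatase, had 492, 746 and 430 CPM in MCD livers, against 1545, 1442 and 1621 CPM in MCS livers. The highest MCD library was well under the lowest MCS library. Fbp1 was 2.76-fold lower in MCD livers, with a log2 fold change of -1.47 ± 0.26 (SE, n = 3 each, edgeR adjusted p = 0.00609). Fbp1 and Pck2 were the genes of the 8 that kept their call under each scaling, test, filter, threshold and left-out library tried. With libraries scaled to the hepatocyte markers the log2 fold change of Fbp1 was smaller, at -0.78.

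Pcx, pyruvate carboxylase, which makes oxaloacetate from pyruvate in mitochondria, had 622, 775 and 481 CPM in MCD livers, against 1196, 1220 and 1237 CPM in MCS livers. The MCS libraries lay close together, and all MCD libraries were lower. Pcx was 1.95-fold lower in MCD livers, a log2 fold change of -0.96 ± 0.24 (SE, n = 3 each, edgeR adjusted p = 0.0201). Its call depended on the scale and on single libraries. It was -0.38 on log2(TPM + 1) (limma adjusted p = 0.0583) and -0.26 with libraries scaled to the hepatocyte markers (edgeR adjusted p = 0.244). The call was also lost without MCD replicate 1 (edgeR adjusted p = 0.0905), MCS replicate 1 (adjusted p = 0.0753) or MCS replicate 2 (adjusted p = 0.0788).

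Of the regulators, Foxo1 was called lower and Ppargc1a was not called. Foxo1, the insulin-restrained transcription factor of Pck1 and G6pc, had 39.4, 41.2 and 33.0 CPM in MCD livers, against 67.1, 65.5 and 59.6 CPM in MCS livers. The diets did not overlap, and the log2 fold change was -0.76 ± 0.14 (SE, n = 3 each, edgeR adjusted p = 0.00606). On the TPM scale the gap nearly closed, to 9.90, 8.63 and 9.86 TPM in MCD livers and 10.5, 9.95 and 9.93 TPM in MCS livers. Foxo1 therefore counts as lower only relative to the bulk of expressed genes: it was -0.22 with library size alone (edgeR adjusted p = 0.144) and -0.02 with libraries scaled to the hepatocyte markers (adjusted p = 0.944). Ppargc1a, the coactivator PGC-1alpha, was low in every library, at 4.23, 6.02 and 6.86 CPM in MCD livers and 6.33, 8.61 and 6.07 CPM in MCS livers. The diets overlapped, with a log2 fold change of -0.29 ± 0.26 (SE, n = 3 each, edgeR adjusted p = 0.442) that turned to 0.28 with library size alone.

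**Figure D2:**
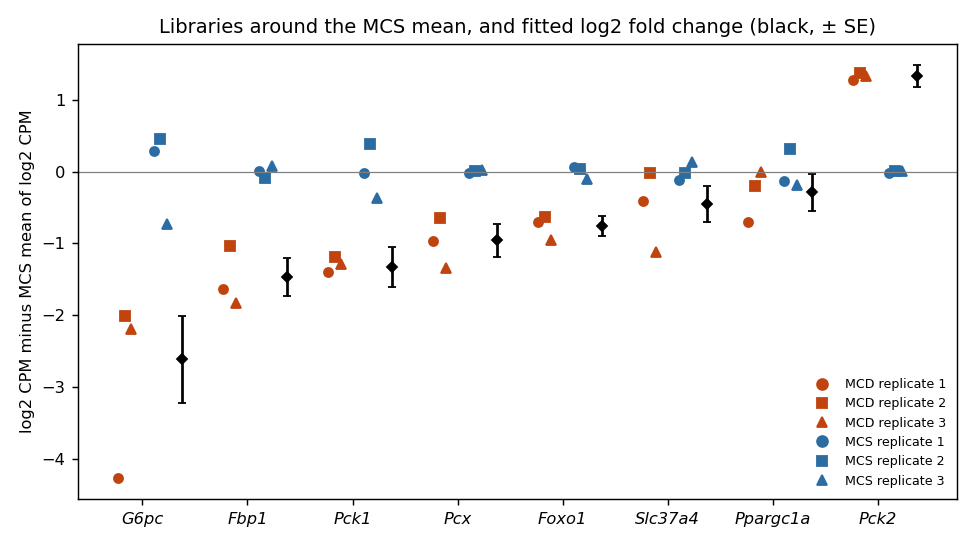
Log2 CPM of each library minus the mean log2 CPM of the MCS libraries, for MCD (orange) and MCS (blue) libraries, with the fitted log2 fold change (MCD over MCS, black, ± SE). G6pc, at -2.62, has the largest change and the widest spread, and Pck2, at 1.33, is the gene that rose.

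**Figure D3:**
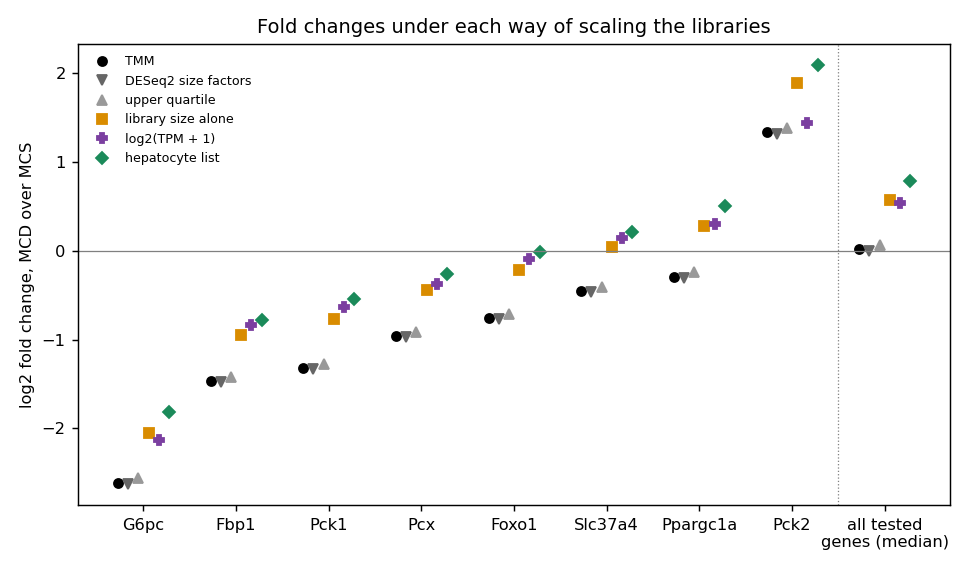
Log2 fold change (MCD over MCS) of each gluconeogenesis gene and the median of all tested genes under 6 scalings or units. The order of the genes is nearly kept while the zero line moves: Slc37a4 and Ppargc1a lie below 0 with TMM and above 0 with library size alone, TPM or the hepatocyte list, and the median of all tested genes is 0.01 with TMM and 0.57 with library size alone.

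In the authors' deposited table, whose fold changes rest on TPM, the log2 fold change of Pck1 was -0.64 (FDR 0.00859), that of Pck2 was 1.64 (FDR 8.29e-09), that of G6pc was -1.93 (FDR 0.0271) and that of Fbp1 was -0.84 (FDR 0.00183). In the authors' deposited table Pcx had -0.38 (FDR 0.160), Foxo1 -0.10 (FDR 0.587), Slc37a4 0.16 (FDR 0.863) and Ppargc1a 0.50 (FDR 0.530). Pcx and Foxo1 were thus called lower in the TMM-scaled test here and had an FDR above 0.05 there.

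Enzymes that work against each other were set side by side within a library. Fbp1 had 30.3, 48.6 and 29.7 times the TPM of Pfkl, the liver phosphofructokinase, in MCD livers, against 73.1, 68.8 and 94.7 times in MCS livers. Each MCD ratio was below each MCS ratio, with a log2 difference of -1.15 (exact permutation p = 0.1, 0.15 adjusted over 6 ratios). Pcx had 3.50, 4.10 and 3.17 times the TPM of Pdha1, a subunit of the pyruvate dehydrogenase that competes for pyruvate, in MCD livers, against 8.23, 7.65 and 7.10 times in MCS livers. These did not overlap either, with a log2 difference of -1.10 (exact permutation p = 0.1, 0.15 adjusted). Pck1 had 8.84, 11.4 and 18.8 times the TPM of Pklr, the liver pyruvate kinase, in MCD livers, and 16.1, 31.1 and 12.5 times in MCS livers. These overlapped, with a log2 difference of -0.57 (exact permutation p = 0.4, also after adjustment).

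**Figure D4:**
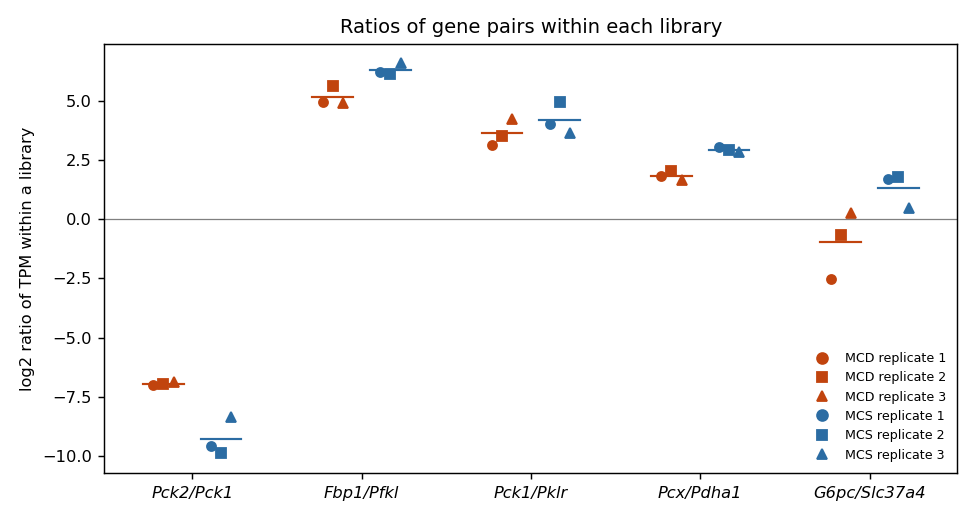
Log2 ratio of TPM for 5 pairs of genes within each MCD (orange) and MCS (blue) library, with the mean as a line. Pck2/Pck1 is higher in all MCD libraries, Fbp1/Pfkl, Pcx/Pdha1 and G6pc/Slc37a4 are lower in all MCD libraries, and Pck1/Pklr overlaps.

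The steps that gluconeogenesis shares with glycolysis did not pass the test. Of 8 genes of the reversible steps and the glucose transporter Slc2a2, edgeR called 0, with 0 at an unadjusted p under 0.05. DESeq2 called 1 lower, limma-voom called 0, and for 2 of them MCD and MCS libraries stood apart. Their median log2 fold change was -0.16, and 3 were called higher and 0 lower with library size alone, under which 40.4% of all tested genes were called higher. Of 8 genes of the opposing glycolytic and pyruvate dehydrogenase steps, 1 was called higher and 0 lower with TMM, with a median of -0.21. With library size alone 2 were called higher and 0 lower, with a median of 0.29, beside 40.4% and 2.76% of all tested genes. No direction is given for the group. The gene called with TMM was Pdk4, the kinase that shuts off pyruvate dehydrogenase. It had 67.9, 54.0 and 133 CPM in MCD livers, against 2.53, 6.04 and 5.02 CPM in MCS livers, a log2 fold change of 4.24 ± 0.46 (SE, n = 3 each, edgeR adjusted p = 0.00161).

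Of 16 genes by which precursors enter the pathway, 3 were called lower and 1 higher with TMM, with a median log2 fold change of -0.44. DESeq2 called 7 lower and 1 higher. With library size alone 2 were lower and 6 higher, with a median of 0.07. Under that scaling 2.76% of all tested genes were called lower and 40.4% higher. No direction is given for the group. Gpd1, the cytosolic glycerol-3-phosphate dehydrogenase through which glycerol enters, had 234, 238 and 142 CPM in MCD livers, against 790, 672 and 649 CPM in MCS livers. Its log2 fold change was -1.78 ± 0.25 (SE, n = 3 each, edgeR adjusted p = 0.00215), and it was called lower under every alternative tried. Ldha, a lactate dehydrogenase subunit (-1.14, edgeR adjusted p = 0.0184), and Got1, the cytosolic aspartate aminotransferase (-1.14, adjusted p = 0.0278), were also called lower. Ldhb, the other main lactate dehydrogenase subunit, was called higher (1.31, edgeR adjusted p = 0.0338). The call of Got1 was lost with library size alone (-0.63, edgeR adjusted p = 0.0734), and on log2(TPM + 1) the log2 fold change was -0.57 for Got1 (limma adjusted p = 0.0829) and -0.45 for Ldha (0.0873). With libraries scaled to the hepatocyte markers it was -0.46 for Got1 (edgeR adjusted p = 0.144) and -0.39 for Ldha (0.127), and the call of Ldhb was lost with limma-voom (adjusted p = 0.0587). Each of the 3 calls was lost without MCD replicate 1, with adjusted p of 0.0883 for Ldha, 0.0846 for Got1 and 0.101 for Ldhb. They were also lost without MCS replicate 1, with adjusted p of 0.0843 for Ldha, 0.0914 for Got1 and 0.119 for Ldhb, and without MCS replicate 2, with 0.0794 for Ldha, 0.0781 for Got1 and 0.116 for Ldhb. The calls of Got1 and Ldhb were lost without MCD replicate 3, with adjusted p of 0.102 for Got1 and 0.0776 for Ldhb, and that of Got1 without MCS replicate 3 (0.0618).

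Of 14 glycogen genes, 6 were called lower and 2 higher with TMM. With library size alone 1 was called lower and 6 higher, beside 2.76% and 40.4% of all tested genes. No direction is given for the group. Its median log2 fold change was -0.25 with TMM and 0.27 with library size alone. The genes called higher, Pgm2, a phosphoglucomutase (1.24 ± 0.21, SE, edgeR adjusted p = 0.00474), and Gyg, the glycogenin that primes glycogen (1.05, adjusted p = 0.0103), were called higher under each scaling. Pgm1, the other phosphoglucomutase listed, averaged 395 CPM in MCS livers, against 5.18 CPM for Pgm2. Pgm1 was called lower with TMM (-0.76, edgeR adjusted p = 0.0455), although its TPM overlapped between the diets. Gys2 (-0.75, edgeR adjusted p = 0.0307) and Ppp1r3b (-1.04, adjusted p = 0.0159) were also called lower with TMM, but not on log2(TPM + 1). Gaa, the lysosomal glycogen glucosidase (-1.08 with TMM, edgeR adjusted p = 0.00660), was not called with library size alone (adjusted p = 0.0539). Among paralogues of the 8 genes, 9 of 11 passed the filter, with 2 called lower, 1 higher and a median of -0.02 with TMM. With library size alone 0 were called lower and 4 higher, with a median of 0.53. All tested genes then had a median of 0.57, with 40.4% called higher. Slc37a2, a sugar phosphate transporter of the Slc37a4 family, had 28.6, 18.5 and 44.5 CPM in MCD livers, against 2.59, 2.57 and 1.99 CPM in MCS livers, a log2 fold change of 3.69 ± 0.34 (SE, n = 3 each, edgeR adjusted p = 0.000440). Foxo3 (-0.54, edgeR adjusted p = 0.0363) and Foxo4 (-0.48, adjusted p = 0.0354) were called lower with TMM, and their signs turned with library size alone (0.01 for Foxo3 and 0.08 for Foxo4). The Foxo3 call was also lost without MCD replicate 2 (edgeR adjusted p = 0.0513), MCD replicate 3 (0.0613), MCS replicate 1 (0.0709), MCS replicate 2 (0.141) or MCS replicate 3 (0.0693). The Foxo4 call was lost without MCD replicate 1 (edgeR adjusted p = 0.0736), MCD replicate 3 (0.0604), MCS replicate 1 (0.107), MCS replicate 2 (0.133) or MCS replicate 3 (0.0535).

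Of 26 hormonal and transcriptional regulators of the pathway, 8 were called lower and 0 higher with TMM, with a median log2 fold change of -0.41, but 2 were lower and 6 higher with library size alone, with a median of 0.12, beside 40.4% of all tested genes called higher and 2.76% lower under that scaling. No direction is given for the group. Klf15, a fasting-induced transcription factor, had 72.7, 87.0 and 57.3 CPM in MCD livers, against 145, 156 and 160 CPM in MCS livers, and a log2 fold change of -1.09 ± 0.18 (SE, n = 3 each, edgeR adjusted p = 0.00417). Gcgr, the glucagon receptor, had 116, 124 and 84.0 CPM in MCD livers, against 230, 243 and 186 CPM in MCS livers, and a log2 fold change of -1.03 ± 0.20 (SE, n = 3 each, edgeR adjusted p = 0.00810). Neither gene overlapped between the diets. Klf15 and Gcgr were not called with libraries scaled to the hepatocyte markers (edgeR adjusted p = 0.125 for Klf15 and 0.184 for Gcgr). Insr, the insulin receptor, was called lower with TMM (-0.74, edgeR adjusted p = 0.00944) but not with library size alone (-0.19, adjusted p = 0.294), and its call was lost without MCD replicate 1 (0.0521), MCS replicate 1 (0.0517) or MCS replicate 2 (0.0514).

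Genes known as FOXO1 targets, Pck1 and G6pc left aside, were called in both directions with TMM. Of 15, 3 were called higher and 4 lower, with a median log2 fold change of 0.04. With library size alone 5 were called higher and 1 lower, with a median of 0.61. Over all tested genes that scaling gave a median of 0.57, with 40.4% called higher and 2.76% lower. Pdk4 rose, as given above, as did Fbxo32, a ubiquitin ligase subunit (1.31, edgeR adjusted p = 0.0173), and Sesn1, a sestrin (0.97, adjusted p = 0.0187). Insr, Mttp, the lipid transfer protein of lipoprotein assembly (-1.02, edgeR adjusted p = 0.0114), and Trib1, a pseudokinase (-0.65, adjusted p = 0.0204), were among the 4 called lower. With TPM the sign of Trib1 turned (0.03), and Mttp was not called (limma adjusted p = 0.0921). Without MCD replicate 1 the adjusted p was 0.0533 for Fbxo32, 0.0736 for Sesn1, 0.0506 for Mttp and 0.0603 for Trib1. Without MCS replicate 2 it was 0.0541 for Fbxo32, 0.0736 for Sesn1, 0.0593 for Mttp and 0.0706 for Trib1. Without MCS replicate 1 it was 0.0600 for Fbxo32 and 0.0542 for Mttp, and without MCS replicate 3 it was 0.0545 for Fbxo32, 0.0558 for Sesn1 and 0.0533 for Trib1.

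Pck2 is known as a target of ATF4, the transcription factor of the integrated stress response, and a list of ATF4 and 14 genes tied to it was set beside Pck2. Of these 15 genes, 8 were called higher and 0 lower, with a median log2 fold change of 1.70. DESeq2 called 8 higher and 1 lower. With library size alone 11 were higher and 0 lower, beside 40.4% of all tested genes called higher. Atf3, a stress-induced transcription factor, had 33.1, 20.4 and 41.0 CPM in MCD livers, against 0.575, 2.27 and 2.81 CPM in MCS livers, a log2 fold change of 4.07 ± 0.51 (SE, n = 3 each, edgeR adjusted p = 0.00252). Ddit4, an inhibitor of mTORC1 signalling, had 7.65, 13.0 and 8.32 CPM in MCD livers, against 1.21, 2.72 and 1.99 CPM in MCS livers (2.30 ± 0.35, SE, n = 3 each, edgeR adjusted p = 0.00323). Psat1, an enzyme of serine synthesis, had 5.62, 4.43 and 7.77 CPM in MCD livers, against 0.690, 1.44 and 1.21 CPM in MCS livers (2.42 ± 0.38, SE, n = 3 each, edgeR adjusted p = 0.00346). All 3 were called higher under each alternative tried. Atf4 itself had 54.9, 55.0 and 44.0 CPM in MCD livers and 65.2, 70.8 and 64.3 CPM in MCS livers, with a log2 fold change of -0.38 ± 0.14 (SE, n = 3 each, edgeR adjusted p = 0.0748) that turned to 0.16 with library size alone. ATF4 is known to be controlled largely at translation, which RNA levels do not show. Whether ATF4 acted on Pck2 in these livers was not tested.

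**Figure D5:**
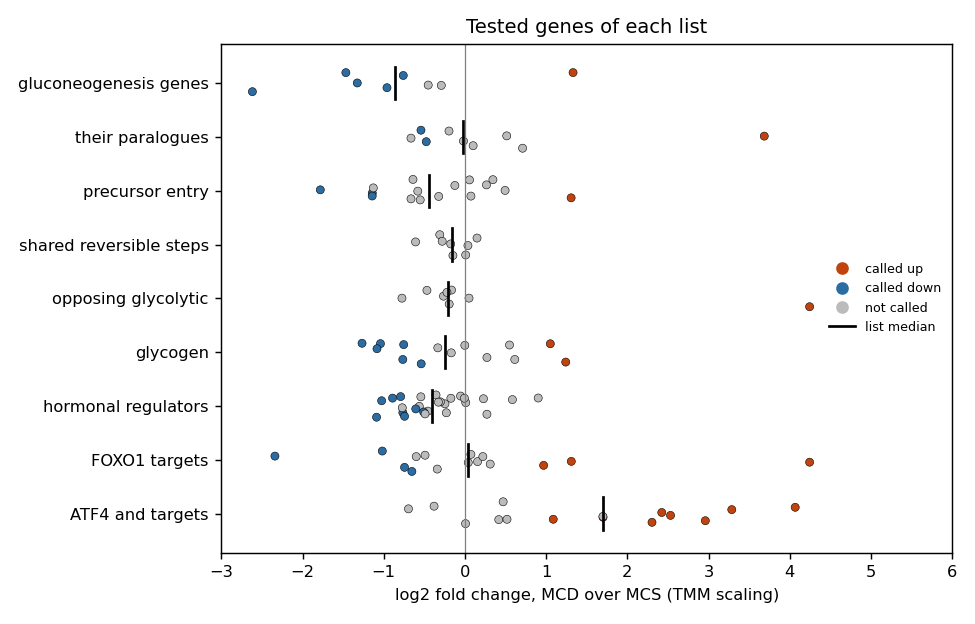
Log2 fold change (MCD over MCS, TMM scaling) of each tested gene of the gluconeogenesis genes and 8 related lists, with genes called higher in orange, called lower in blue, not called in grey, and the list median as a black line. The gluconeogenesis genes have a median of -0.86, and ATF4 and its targets a median of 1.70.

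Markers of other cell types moved with diet. Of 9 macrophage markers, 8 were called higher and 1 lower, and their summed TPM was 1330 to 4409 in MCD livers, against 319 to 456 in MCS livers. Of 6 cholangiocyte markers, 5 were called higher (241 to 1016 TPM in MCD livers, against 40.2 to 58.6 TPM in MCS livers), as were 4 of 9 stellate cell and fibroblast markers (214 to 1416 TPM in MCD livers, against 74.1 to 149 TPM in MCS livers). Of 9 endothelial markers, edgeR called 0, with 0 at an unadjusted p under 0.05 and 0 called by DESeq2 or limma-voom, and 3 called lower without replicate 3 of both diets, at 32.5 to 230 TPM in MCD livers and 47.8 to 165 TPM in MCS livers. No macrophage, cholangiocyte, stellate or endothelial marker was at 0 counts in any library. Of 5 lymphocyte markers 3 were tested and 1 was called higher (4.52 to 14.4 TPM in MCD livers, against 1.10 to 3.56 TPM in MCS livers). Of 4 adipocyte markers 1 was tested and called lower (0 to 0.915 TPM in MCD livers, against 3.44 to 10.2 TPM in MCS livers), and Lep was at 0 in all libraries. Hepatocyte markers had 5 of 16 called lower and 0 higher with TMM, with a median log2 fold change of -0.75. DESeq2 called 11 lower and limma-voom 5, and with 1 library left out edgeR called 0 to 9 lower. With library size alone 1 was lower and 0 higher, beside 2.76% of all tested genes called lower and 40.4% higher. Without replicate 3 of both diets, 8 macrophage, 4 cholangiocyte and 1 stellate markers were called higher, and 8 hepatocyte markers lower. MCD replicate 2 had the lowest macrophage, cholangiocyte and stellate sums of the MCD libraries. On the CPM scale it also had the highest value among them of 7 of the 8 gluconeogenesis genes, Pck2 included and Ppargc1a excepted. Its Pck1, Fbp1, Pcx, G6pc and Foxo1 CPM were below those of each MCS library. On the TPM scale it was highest of the MCD libraries only for Fbp1, Pcx and Slc37a4. There it was lowest for Pck1 (1213 TPM), Pck2 (9.82 TPM) and Foxo1 (8.63 TPM). The part of cell composition in these differences was not tested.

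Lobular position is a further feature of these genes, since gluconeogenesis is known to be strongest around the portal tracts. Of 12 periportal markers, 2 were called higher and 0 lower with TMM, against 2 higher and 6 lower by DESeq2 and 1 higher and 8 lower without MCD replicate 2. Their median log2 fold change was -0.65 with TMM and -0.15 with library size alone, with a summed TPM of 5949 to 8354 in MCD livers and 4845 to 8297 in MCS livers. Of 11 pericentral markers, 1 was called higher and 2 lower, with a median of -0.44 with TMM and 0.08 with library size alone, and 11785 to 14488 TPM in MCD livers, against 15419 to 16503 TPM in MCS livers. The periportal sums overlapped. The gap between the pericentral sums rested on Cyp2e1, the most abundant marker: without it the other 10 summed to 3286 to 3525 TPM in MCD livers and 3242 to 3411 TPM in MCS livers, which overlapped.

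The genes whose log2 CPM followed each gluconeogenesis gene most closely over the 6 libraries were sought among the 9099 genes that averaged 5 CPM or more. For Pck1 they were Hsph1, Kif13a and Elovl2 (Pearson r of 0.997, 0.995 and 0.994). For Pck2 they were Tpra1, Tnfaip3 and Ctps (0.998, 0.998 and 0.996), for G6pc Ppm1k, Ubr3 and N4bp2 (0.991, 0.988 and 0.985), and for Fbp1 Bltp2, Albfm1 and Eef2 (each 0.999). The libraries form 2 diets, so genes that differ between the diets can share a high r. An r over 0.9 was reached by 706 genes with Pck1, 792 with Pck2, 1395 with Fbp1, 1660 with Pcx and 1377 with Foxo1. It was reached by 979 genes with Slc37a4, which was not called, by 194 with G6pc, which had the largest fold change, and by 19 with Ppargc1a. These counts did not follow the size of the diet difference. The values describe likeness over these libraries only.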

How the data were processed

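Samples were grouped by the diet in their titles. Per the submitters' processing notes, RSEM, StringTie 1.3.1, HISAT2 2.1.0, Bowtie2 2.2.8 and fastp 0.18.0 were used on build GRCm39, in roles not given; strandedness is not stated, so reads of overlapping antisense genes cannot be told apart. The deposited table gives whole-number counts and TPM per gene and library; since 64 zero counts stand beside a TPM above 0, the deposited counts were treated as rounded expected counts. The log2 fold changes of the authors' deposited table rest on mean TPM. The p-values and FDR deposited by the authors come from a test that the file headers do not name.

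Of 21899 genes, 12599 passed filterByExpr (minimum count 10). They were fitted in R 4.3.3 with edgeR 4.0.16 (quasi-likelihood, robust, TMM, diet as the only term). CPM values use TMM-scaled library sizes; SE comes from the fold change and its F statistic (log2 fold change over root F). Depth put 3 counts at 0.104 to 0.227 CPM. No libraries were duplicates: between any pair, chi-square over its degrees of freedom was 13.7 or more. Within-library TPM ratios were compared by exact two-sided permutation tests. Alternatives used limma 3.58.1 (voom, or log2(TPM + 1) and log2(TPM + 0.1)), DESeq2 1.42.0, other scalings, a fit without filter, a threshold of 0.01 and left-out libraries; a left-out library leaves its diet with 2. Scripts were tested on simulated data.

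All 8 gluconeogenesis genes are named. From each pathway list the rule names up to 3 called genes per direction with the smallest p, or with none called the most abundant; for likeness, the 3 genes with the highest r. Not every gene the rule names is described, and 1 of the 6 ratios and some marker and list genes are not reported here. Atf4, Pgm1 and the other genes of the ATF4 list that were not called were added after their values were seen. The partner genes of the ratios are named for those ratios. Cell type markers are given as list totals, with names only for examples and for zeros. The 8 genes, lists and tests were chosen with earlier results of these data known. Gyg was matched through its older symbol. Promoter windows are RefSeq's, and all 8 genes matched.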

Additional observations from a re-analysis of the deposited data

How the results depend on the processing

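Pck2 and Fbp1 kept their direction and call under every alternative tried, and G6pc under every scaling and unit. The number of gluconeogenesis genes called lower, 5 with TMM, was 2 with libraries scaled to the hepatocyte markers, 3 with limma on log2(TPM + 1) and 3 on log2(TPM + 0.1), and 2 at an adjusted p under 0.01; with 1 library left out it ranged from 2 to 6. Genes called higher numbered 1861, against 5095 with library size alone, 5317 with the hepatocyte scaling, 5449 on log2(TPM + 1), 5718 on log2(TPM + 0.1) and 754 at 0.01, and 946 to 2363 with a library left out. Genes called lower numbered 1256, against 348, 189, 264, 274 and 304 in the same order, and 400 to 2072 with a library left out; the median over all genes was 0.01 with TMM and 0.57 with library size alone.

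Signs turned as follows. With library size alone the log2 fold change was 0.047 for Slc37a4, 0.28 for Ppargc1a, 0.012 for Foxo3, 0.078 for Foxo4 and 0.16 for Atf4. With the hepatocyte scaling it was 0.21 for Slc37a4, 0.50 for Ppargc1a, 0.22 for Foxo3, 0.28 for Foxo4, 0.36 for Atf4, 0.029 for Insr, 0.082 for Trib1 and 0.0033 for Gys2. On log2(TPM + 1) it was 0.14 for Slc37a4, 0.30 for Ppargc1a, 0.12 for Foxo3, 0.12 for Foxo4, 0.29 for Atf4 and 0.0315 for Trib1. On log2(TPM + 0.1) it was 0.14, 0.43, 0.12, 0.12, 0.29 and 0.0331 for the same genes in the same order. The cause was not tested.

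Replicate numbers are not said to pair animals, and deviations of same-numbered libraries correlated at 0.05, 0.13 and 0.23. With the replicate number as a block, 5 gluconeogenesis genes were called lower and 1 higher, as without it, the log2 fold change of G6pc was -2.78 (edgeR adjusted p = 0.00968), Foxo4 was no longer called (adjusted p = 0.0564), 3 of 9 endothelial markers were called lower against 0 without it, 8 of 9 stellate markers higher against 4, and 1 of 12 periportal markers higher and 2 lower against 2 and 0, and 1987 genes were called higher and 1296 lower. Leaving out replicate 3 of both diets was an alternative chosen after seeing the data because these libraries stand apart. Without them the call of G6pc was lost (log2 fold change -3.10, edgeR adjusted p = 0.181), while those of Pck1, Pck2, Fbp1, Pcx and Foxo1 held. Depth limits Ppargc1a and Pck2 in particular, which had 80 to 436 counts per library.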

Other observations

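On the TPM scale, G6pc, Pck1 and Igfbp1 were highest in the same library within each diet. G6pc had 23.8, 95.5 and 120 TPM in MCD replicates 1 to 3, and 346, 381 and 183 TPM in MCS replicates 1 to 3. Pck1 had 1264, 1213 and 1617 TPM in MCD livers and 2036, 2634 and 1708 TPM in MCS livers. Igfbp1, a hepatic gene known to be raised in fasting and lowered by insulin, had 146, 107 and 332 TPM in MCD livers and 59.2, 149 and 69.7 TPM in MCS livers. These are 3 libraries per diet, the genes were chosen after their values were seen, and no test was made. On the CPM scale the pattern did not hold among the MCD libraries: G6pc (127 CPM) and Pck1 (1776 CPM) were highest in MCD replicate 2, and Igfbp1 (195 CPM) in MCD replicate 3.

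The deposited count and TPM of Pck2 did not keep a fixed ratio across libraries. Relative to the other genes of a library, its log2 count per TPM was 0.26, 0.10 and 0.09 in MCD replicates 1 to 3 and 0.16, 0.08 and -0.70 in MCS replicates 1 to 3. The range of 0.96 was wider than that of 97.3% of 11119 genes, and for Pck1, G6pc and Fbp1 the ratio was nearly fixed. The Pck2 level of 5.27 TPM in MCS replicate 3, and with it the PEPCK share of 0.308% there, is therefore high for the count of 110. By count the Pck2 values of the MCS libraries lay close together, at 5.93, 6.04 and 6.07 CPM.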
